A study of Mus musculus with 12 samples.

Results

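The genes described here encode the nuclear subunits of the mitochondrial respiratory chain and of ATP synthase. They were taken from a table of 23937 genes as the symbols that begin with Nduf followed by a, b, c, s or v and a digit, Uqcr, Cox4i, Cox5, Cox6, Cox7, Cox8 or Atp5, together with Sdha, Sdhb, Sdhc and Sdhd. Assembly factors named Ndufaf were left out, and a gene had to reach 1 CPM (the deposited unit, reads per 1e+06 of a library size that the authors scaled) in at least 3 libraries. All 84 genes that matched by symbol passed this filter. By role, 35 belonged to complex I, 4 to complex II, 8 to complex III, 20 to complex IV and 15 to complex V. Ndufa4 and its paralogue Ndufa4l2 were placed in complex IV, where the Ndufa4 protein is found. The other 2, Atp5s and Atp5sl, matched by symbol and are not subunits of the enzyme.

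RNA was sequenced from mouse CD8 T cells in 4 groups of 3 samples each. The groups were cells from the blood of naive mice, from the brain of naive mice, and from the brain 3 days and 30 days after stroke. No treatment other than the stroke is labelled, and the labels give no strain, sex, age, genotype or way of making the stroke. Whether each of the 3 samples in a group came from its own mouse is not stated, and the p-values speak only of the spread between samples, part of which may be technical. The sample names and tissue labels say brain or blood, whereas the sorting protocol in the labels speaks of spleens.

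The respiratory chain passes electrons from NADH, through complex I, or from succinate, through complex II, to ubiquinone, then through complex III and cytochrome c to complex IV, which reduces oxygen. Complexes I, III and IV pump protons across the inner mitochondrial membrane, and complex V, the ATP synthase, uses their return to make ATP. Resting T cells depend largely on this pathway, activated effector T cells add glycolysis to it, and memory CD8 T cells are known for their respiratory reserve.

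Depth ran from 1104490 to 21014171 reads per library, and 3 reads, the most that a count of 0 allows for, corresponded to 0.298 to 1.65 CPM. PCR copies count as separate reads in these libraries, so such limits and the intervals below cover counting error only. The summed signal of 1490 chemosensory receptor genes (olfactory, vomeronasal or taste), which are used here as a measure of background, split the libraries into 5 with low background (the 3 naive brain libraries, day 3 replicate 1 and day 30 replicate 1) and 7 with high background. The 7 T cell markers in the table, Cd3d, Cd3e, Cd3g, Cd8a, Cd8b1, Cd2 and Lck, summed to 1519 to 3127 CPM in blood, 7257 to 12510 in naive brain, 308 to 3258 on day 3 and 3585 to 17111 on day 30. The 10 microglia markers summed to 138 to 253 CPM in blood, 15367 to 42460 in naive brain, 1426 to 21986 on day 3 and 1356 to 8030 on day 30. No T cell or microglia marker was at 0 in a whole group, blood included. The microglia sum of every brain library lay above that of every blood library, so brain groups held more RNA with microglia markers beside that of the sorted cell type. In bulk RNA, fewer cells of a type and less RNA per cell cannot be told apart.

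Promoters of these genes are known for sites of NRF1, of ETS factors such as GABP, and of YY1, which tie the nuclear subunits to mitochondrial biogenesis. In windows of 300 bases, 250 before and 50 after the start site in RefSeq (GRCm38.p6), 63 subunits that are not tissue isoforms had an entry. The NRF1 letters, GCGC and TGCGC with 1 base of any kind between them, were in 17 of them (27.0%) and in 5.19% of 27025 genes. A gene with several windows was counted as a match if any of them held the letters. The ETS letters CCGGAAG were in 16 (25.4%) against 9.93%, and the YY1 letters AANATGGCG in 10 (15.9%) against 2.76%. The TATA letters TATAAA were in 5 (7.94%) against 15.7%. All letters were read on both strands, and none of these motifs contains another. A match is a description of the sequence, not a measured site.

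The promoters of 3 members are shown as the 250 bases before the start site, 5′ to 3′ on the gene's strand, with NRF1 and ETS letters in capitals. Cox6a1 (chr5:115348959-115349208, minus strand) is the common partner of the isoform that varied most across the brain groups. Its window held NRF1 letters 162 and 117 bases and ETS letters 16 bases upstream, the nearer NRF1 letters and the ETS letters as the reverse complement. Uqcrc1 (chr9:108936398-108936647, plus strand) had the largest difference between naive brain and blood, and its NRF1 letters began 5 and 30 bases after the start, outside the printed stretch. Uqcr11 (chr10:80406822-80407071, minus strand), among the most abundant complex III genes, held ETS letters 66 bases upstream.
Cox6a1: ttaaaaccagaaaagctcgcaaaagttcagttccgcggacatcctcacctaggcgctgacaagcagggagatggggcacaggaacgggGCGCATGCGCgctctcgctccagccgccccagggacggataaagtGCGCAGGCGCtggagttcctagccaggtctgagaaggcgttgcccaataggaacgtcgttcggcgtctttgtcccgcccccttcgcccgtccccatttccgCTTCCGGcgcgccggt
Uqcrc1: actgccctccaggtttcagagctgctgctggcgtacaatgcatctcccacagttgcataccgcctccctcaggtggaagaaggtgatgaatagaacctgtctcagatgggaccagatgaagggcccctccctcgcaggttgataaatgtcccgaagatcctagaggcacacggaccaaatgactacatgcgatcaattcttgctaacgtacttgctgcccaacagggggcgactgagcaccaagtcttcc
Uqcr11: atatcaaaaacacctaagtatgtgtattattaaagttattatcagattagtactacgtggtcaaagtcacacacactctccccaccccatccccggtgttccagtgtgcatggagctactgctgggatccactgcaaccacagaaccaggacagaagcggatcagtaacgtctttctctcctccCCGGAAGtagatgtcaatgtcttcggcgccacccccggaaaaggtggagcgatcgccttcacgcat

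The subunit genes were among the abundant transcripts of every library. Together they took 1.23% to 2.34% of a library's reads, and their median CPM lay between percentiles 94.0 and 96.9 of all tested genes of the same library. Per kilobase of exon, the highest mean levels over the 12 libraries in complex IV were those of Cox8a, a small membrane subunit, at 1639 CPM per kb, and Cox6b1, which faces cytochrome c, at 955. Ndufa1 and Ndufa2, accessory subunits of complex I, reached 743 and 651 CPM per kb. Uqcr10 and Uqcr11, small subunits of complex III, reached 709 and 455. Atp5o and Atp5h, of the stator stalk of ATP synthase, reached 446 and 275. The leading complex II genes were lower, with 110 CPM per kb for Sdhd, a membrane anchor, and 103 for Sdhb, the iron-sulfur subunit.

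Reads of the members were spread over the complexes in proportions that do not depend on how libraries are scaled to each other. In complex V the share was 19.1%, 21.6% and 19.7% in the 3 blood libraries, 25.4%, 30.0% and 28.4% in naive brain, 23.2%, 24.3% and 19.9% on day 3 and 29.0%, 24.7% and 22.7% on day 30. Every naive brain share lay above every blood share, while day 30 overlapped with naive brain. For complex I the share was 34.5% ± 0.96 (SD, n = 3) in blood and 30.9% ± 0.96 in naive brain, without overlap, then 29.5% ± 0.60 on day 3 and 31.7% ± 0.25 on day 30. Complex IV took 31.1% ± 1.24 in blood, 26.8% ± 3.59 in naive brain, 34.6% ± 1.43 on day 3 and 28.4% ± 3.99 on day 30, and the 3 day 3 shares were above those of every other library. A single complex IV gene, Cox6a2, described below, took 1.33%, 7.28% and 7.49% of the members' reads on day 3 and at most 0.869% in any other library. Without its reads, a choice made after these values were seen, the complex IV shares on day 3 were 32.5%, 29.0% and 31.0%, which overlapped with blood (29.7% to 32.0%). Complex V then took 23.5%, 26.2% and 21.5% on day 3, which overlapped with naive brain (25.6% to 30.2%), while naive brain stayed above blood (19.2% to 21.6%). Complex III ran from 9.55% to 13.4% with overlap between all groups. Complex II, whose 4 genes took the smallest share, followed the receptor background: 3.31% to 5.17% in the 5 low background libraries and 1.04% to 2.62% in the other 7. These shares were not tested, and the part of receptor background in them was not tested either.

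**Figure D1:**
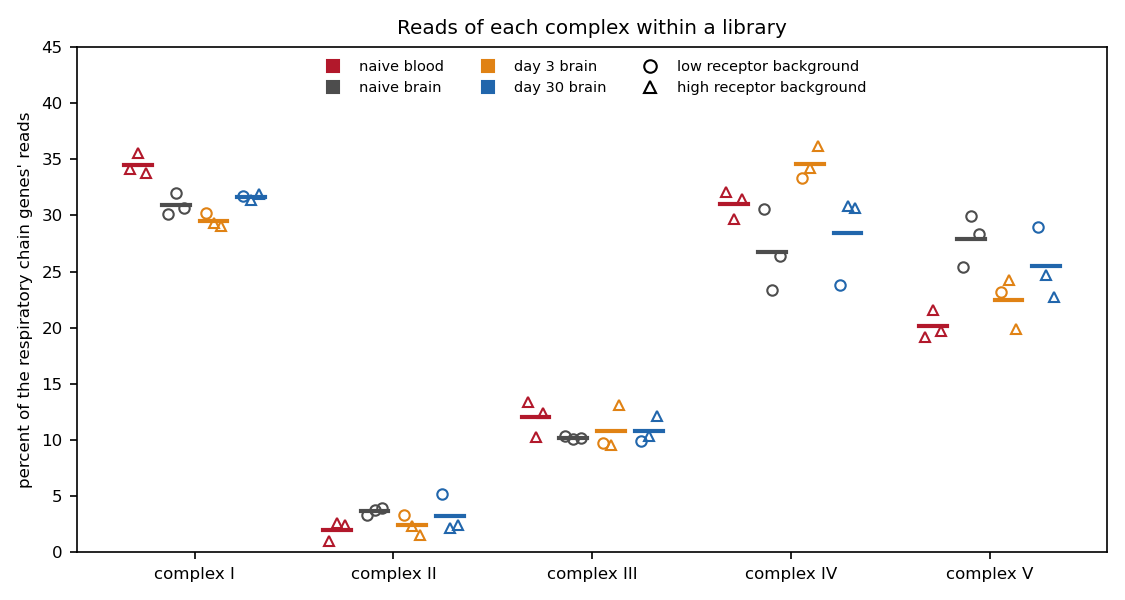
Percent of the reads of the 84 respiratory chain genes that fell to complexes I to V in each of the 12 libraries, by group; points are libraries, bars are group means, and circles mark low and triangles high receptor background. The naive brain points for complex V (25.4% to 30.0%) sit above the blood points (19.1% to 21.6%), and the day 3 points for complex IV are the highest of all groups with Cox6a2 counted, and overlap with blood without it.

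In naive brain against naive blood, 10 of the 84 genes were higher in brain at an adjusted p under 0.05 (limma, Benjamini-Hochberg adjustment over 22352 genes) and 0 were lower. Over all tested genes 6.61% were called higher, 0.975% lower and 7.59% in either direction. By role, the 10 were 3 of 7 core subunits of complex I, 1 of 4 subunits of complex II, 2 of 3 core and catalytic subunits of complex III, 3 of 5 subunits of the F1 head of ATP synthase, and 1 tissue isoform of complex IV. Of the 28 accessory subunits of complex I, 0 were called, with 12 of them higher in all 3 brain than in all 3 blood libraries. In all, 38 members were higher in every brain library than in every blood library and 1 was lower, against 15.6% and 15.2% of all tested genes.

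Uqcrc1, core protein 1 of complex III (chr9:108936633-108949623 in mm10), had 13.5, 5.49 and 22.9 CPM in blood and 350, 520 and 655 CPM in naive brain. All brain libraries were far above all blood libraries, with a log2 difference of 5.24 ± 0.81 (SE) and an adjusted p of 4.27e-06. Uqcrc2, core protein 2, had 67.6, 15.4 and 34.8 CPM in blood and 136, 254 and 304 in naive brain, again without overlap, with a difference of 2.68 ± 0.84 and an adjusted p of 0.0347.

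Atp5d, the delta subunit of the rotating shaft of ATP synthase (chr10:80138632-80145818), had 48.1, 41.7 and 31.7 CPM in blood and 269, 477 and 946 in naive brain. The groups were separate, and the log2 difference was 3.60 ± 0.76 with an adjusted p of 0.000944. Atp5b, the catalytic beta subunit, had 191, 334 and 153 CPM in blood and 764, 1759 and 1853 in naive brain (2.66 ± 0.72, adjusted p = 0.0131). Atp5a1, the alpha subunit of the same catalytic head, had 234, 182 and 200 CPM in blood and 558, 905 and 1268 in naive brain (2.07 ± 0.67, adjusted p = 0.0426). For both head subunits the lowest brain library exceeded the highest blood library.

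Ndufs7, which carries the last iron-sulfur cluster before ubiquinone in complex I (chr10:80249121-80256794), had 31.4, 23.6 and 32.4 CPM in blood and 189, 437 and 441 in naive brain. Its difference was 3.48 ± 0.74 on the log2 scale (adjusted p = 0.000922), without overlap. Ndufs3, a core subunit next to it in the ubiquinone module, had 22.2, 60.3 and 6.69 CPM in blood and 220, 172 and 126 in naive brain (2.93 ± 0.86, adjusted p = 0.0216). Ndufv1, the flavoprotein that binds NADH, had 62.7, 11.5 and 25.7 CPM in blood and 127, 134 and 239 in naive brain (2.54 ± 0.84, adjusted p = 0.0481). In complex II, Sdhb had 103, 108 and 46.5 CPM in blood and 405, 319 and 528 in naive brain (2.33 ± 0.76, adjusted p = 0.0448). The other 3 succinate dehydrogenase genes missed the threshold with similar differences, namely 2.54 ± 0.86 for Sdhc (adjusted p = 0.0534), 2.48 ± 0.86 for Sdhd (0.0603) and 2.05 ± 0.81 for Sdha (0.0986).

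**Figure D2:**
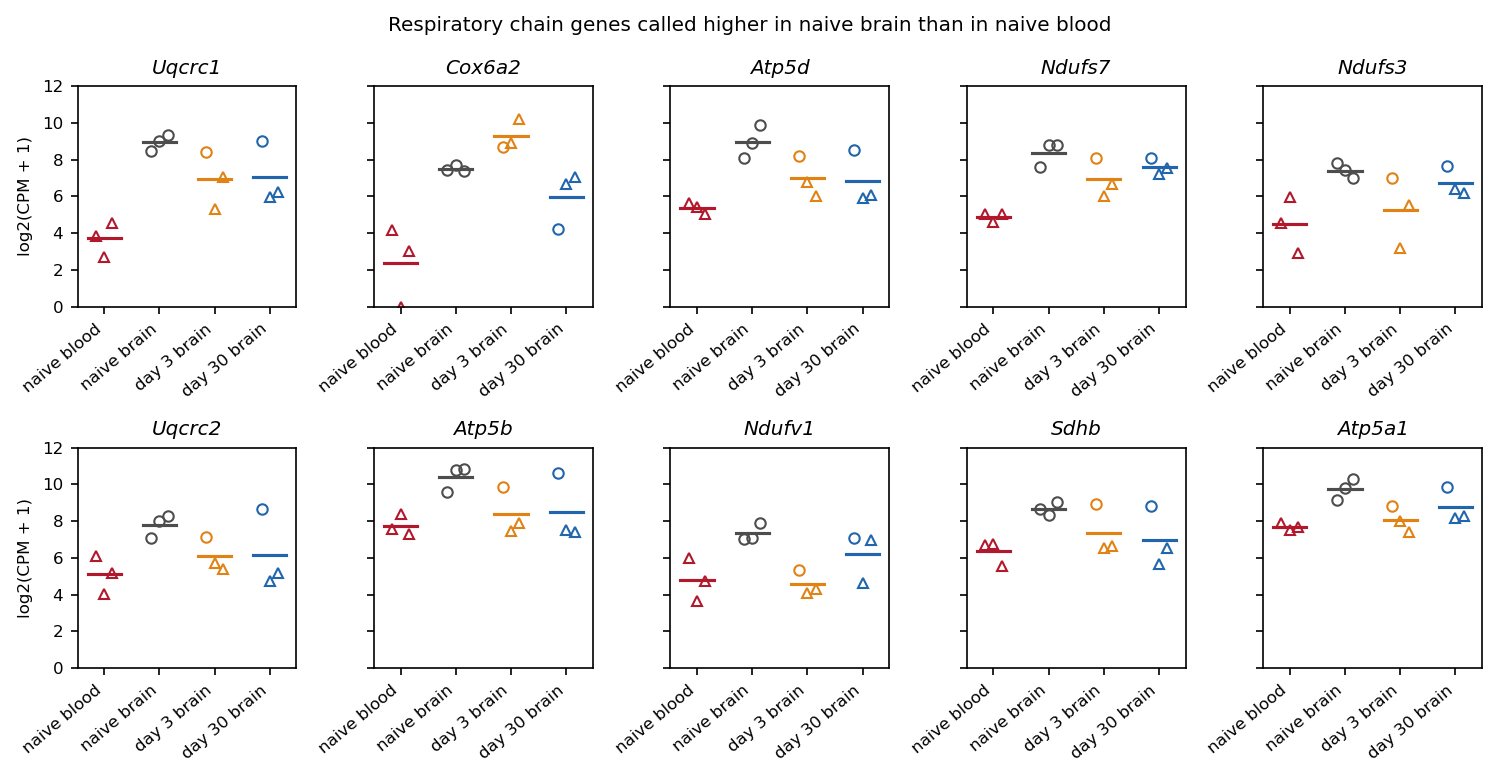
log2(CPM + 1) of the 10 genes called higher in naive brain than in naive blood, in each of the 12 libraries; bars are group means, and circles mark low and triangles high receptor background. For every gene the 3 naive brain points lie above the 3 blood points, and for the 9 genes other than Cox6a2 the low background library is the highest of its stroke group.

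All naive brain libraries had low and all blood libraries high receptor background, so tissue and background cannot be told apart in this pair of groups. The stroke libraries, which hold both kinds, allow a fit with background as a term. In that fit 8 of the 10 differences stayed positive, and Sdhb and Atp5b came to -0.20 and -0.02. Among them 1 gene, Cox6a2, kept an adjusted p under 0.05 (log2 difference 6.86, adjusted p = 0.003). Calls fell over all tested genes as well, from 7.59% to 0.157%. The authors' scaling also bears on the direction of the group as a whole: the members' median difference was 0.95 against -0.37 for all genes tested, but -0.09 against -1.05 on unscaled CPM and -0.05 against -0.14 after quantile normalization. On unscaled CPM 5 members were called higher and 4 lower (3.1% and 3.89% of all tested genes), and after quantile normalization 4 and 4 (2.57% and 0.582%), with Cox7a2, Cox7b and Ndufa4 among the lower in both. Uqcrc1, Cox6a2, Atp5d and Ndufs7 were called higher with the deposited scaling, unscaled, after quantile normalization, and by edgeR and DESeq2. The parts of the chain differed in how their sign held. All 4 complex II genes and all 5 genes of the F1 head had positive differences with the deposited scaling, unscaled, after quantile normalization, and by edgeR and DESeq2, and the 7 core subunits of complex I kept a median of 1.15 to 2.37. The medians of whole complexes I, III and IV, which were 0.93, 0.78 and 0.38, turned to -0.27, -0.44 and -0.56 on unscaled CPM, and that of complex V went from 1.56 to 0.35. With background as a term the F1 head had 4 of 5 and complex II 3 of 4 genes positive, and the median of the complex I core subunits was 0.23. The lowest count without 1 library was 4 of the 10, reached without naive blood replicate 3 and again without naive brain replicate 2. There 5.45% and 3.96% of all tested genes were called higher.

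**Figure D3:**
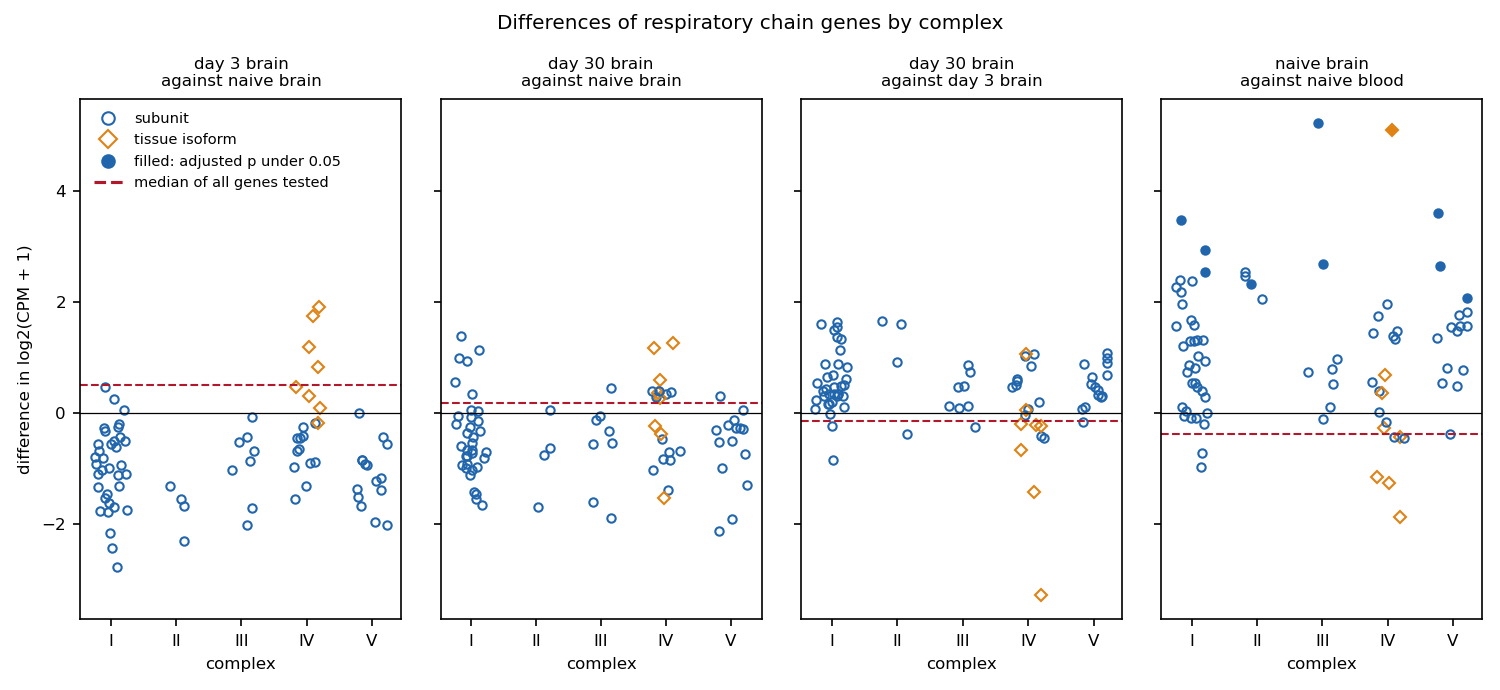
Difference in log2(CPM + 1) of each respiratory chain gene in the 4 comparisons, by complex; circles are subunits, diamonds tissue isoforms, filled symbols have an adjusted p under 0.05 and the dashed line is the median of all genes tested. Filled symbols appear in naive brain against blood alone, and the position of the cloud relative to 0 depends on the scaling: on unscaled CPM the member medians were 0.11, 0.18, 0.13 and -0.09 from left to right.

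On day 3 after stroke against naive brain, 0 of the 84 genes were called by limma, where 0.716% of all tested genes were. Before adjustment 2 members were higher and 17 were lower at p under 0.05, against 5.14% and 7.7% of all tested genes. The libraries did not overlap for 2 members that were higher and 6 that were lower, beside 8.76% and 8.5% of all tested genes. DESeq2 called 1 member, Ndufv1, lower, beside 0.796% of all tested genes. By edgeR 0 members were called, where 1 of all 22352 genes was lower and 0.0716% were higher. The members' median difference was -0.88 and that of all genes 0.50, with 72 of 84 negative, but the members' median turned to 0.11 on unscaled CPM (all genes 1.13) and to 0.15 after quantile normalization (all genes 0.02). The most negative member was Ndufv1, with 127, 134 and 239 CPM in naive brain and 39.0, 15.9 and 18.7 on day 3. All 3 day 3 libraries were below all naive brain libraries, the difference was -2.76 ± 0.84 and the adjusted p was 0.114. Ndufa9, an accessory subunit of the ubiquinone module, had 248, 210 and 420 CPM in naive brain and 76.4, 76.4 and 23.0 on day 3 (-2.42 ± 0.84, adjusted p = 0.189), also without overlap. Sdhd had 101, 288 and 325 CPM in naive brain and 183, 11.8 and 33.7 on day 3 (-2.29 ± 0.86, adjusted p = 0.244), and here day 3 replicate 1 fell among the naive libraries.

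Day 3 replicate 1 stood apart from the other day 3 libraries. Its median member level was 327 CPM, against 63.0 and 133 CPM in replicates 2 and 3 and 234, 241 and 377 CPM in naive brain. Without it 7 members were called lower on day 3, among them Ndufv1, Atp5b, Sdhd, Atp5h and Cox6a1, where 2.73% of all tested genes were called lower, against 0.564% with it, and the members' median was -1.46. Among low background libraries alone, where it is the 1 day 3 library, the median was 0.24 against -0.11 for all genes, with 0 calls. T cell markers moved with these values: all 7 were called lower on day 3 than in naive brain by limma, beside 0.564% of all tested genes. DESeq2 called 5 lower (0.796% of all tested genes) and edgeR 0, where edgeR called 1 of 22352 genes lower. The summed level of these markers was 3258 CPM in replicate 1 and 308 and 904 CPM in replicates 2 and 3. The 10 monocyte and macrophage markers summed to 28027 CPM in replicate 1, 2791 and 4604 CPM in replicates 2 and 3 and 5328 to 6430 CPM in naive brain. By limma 3 of 10 were called higher on day 3, beside 0.152% of all tested genes. The 7 erythroid markers summed to 205, 826 and 1616 CPM on day 3 and 9.93 to 82.5 CPM in naive brain, with 4 of 7 called higher beside the same 0.152%. The part of T cell content, microglia, monocyte and erythroid markers and receptor background in the members' values was not tested.

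The complexes differed in their day 3 medians. Complex II had the lowest, -1.60, with 4 of 4 genes negative, followed by complex V at -1.17 and complex I at -0.93. Complex III had a median of -0.77. That of all 20 complex IV genes was -0.32, and that of the 12 that are not tissue isoforms -0.66. With the deposited scaling no gene in them passed the limma test. On unscaled CPM the medians were -0.63 for complex II, again with 4 of 4 negative, and -0.19 for complex V. Those of complexes I, III and IV turned to 0.05, 0.21 and 0.54, the last over all 20 genes.

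On day 30 against naive brain, 0 members were called (0.224% of all tested genes), and before adjustment 1 was higher and 6 were lower at p under 0.05 (2.93% and 5.97% of all tested genes). The libraries of the 2 groups did not overlap for 5 members on the higher and 5 on the lower side, beside 7.22% and 6.03% of all tested genes. DESeq2 and edgeR called 0 as well (1.07% and 0.0268% of all tested genes). The members' median was -0.44, against 0.19 for all genes, and turned to 0.18 both on unscaled CPM and after quantile normalization. Atp5d gave -2.11 ± 0.76 (adjusted p = 0.333) and Atp5b -1.89 ± 0.72 (adjusted p = 0.39). In Atp5b, day 30 replicate 1 had 1592 CPM, within the naive brain range, and replicates 2 and 3 had 181 and 167 CPM, within the blood range. Without day 30 replicate 1, 4 members were called lower, namely Uqcrc1, Atp5b, Atp5d and Ndufa10, beside 2.3% of all tested genes. The most negative value was that of Atp5sl, which is not an ATP synthase subunit (-2.39 ± 0.89, adjusted p = 0.369). The most positive subunit was Ndufs1, the largest iron-sulfur subunit of complex I, with 9.69, 57.0 and 36.1 CPM in naive brain and 181, 46.8 and 47.0 on day 30 (1.40 ± 0.87, adjusted p = 0.649), with overlap. Both comparisons with naive brain share the same 3 control libraries.

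On day 30 against day 3, 0 members were called by limma without pairing (0.255% of all tested genes), with 4 higher and 1 lower before adjustment at p under 0.05 (2.57% and 3.1% of all tested genes). All 3 day 30 libraries were above all day 3 libraries for 4 members and below them for 1, Cox6a2, beside 4% and 5.65% of all tested genes. The members' median was 0.43 against -0.15 for all genes, with 68 of 84 positive, and it was 0.13 on unscaled CPM, 0.03 after quantile normalization and -0.15 without day 3 replicate 2. All 7 core subunits of complex I had positive differences, from 0.34 to 1.65, as they had on unscaled CPM, against 6 of 7 after quantile normalization and by DESeq2. Ndufv1 was the largest of them, with 39.0, 15.9 and 18.7 CPM on day 3 and 135, 23.4 and 124 on day 30 (1.65 ± 0.84, adjusted p = 0.881). Its day 30 replicate 2 lay within the day 3 range. Sdhd (1.66 ± 0.86, adjusted p = 0.885) and Sdha, the flavoprotein that oxidises succinate (1.61 ± 0.81, adjusted p = 0.879), were of the same size.

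Cox6a2 had the most negative difference of the 84 genes on day 30 against day 3. It encodes the heart and skeletal muscle isoform of subunit 6a of complex IV, and it is also used as a marker gene of plasmacytoid dendritic cells in mice. Its gene lies at chr7:128205435-128206387 on the minus strand, and its exons overlap those of Itgad on the other strand. Blood had 17.3, 0 and 7.04 CPM of Cox6a2, naive brain 172, 208 and 165 CPM, day 3 had 408, 471 and 1192 CPM, and day 30 had 17.7, 101 and 132 CPM. Day 3 lay above every other library, naive brain came next without overlap with any other group, and the lowest day 30 library lay just above the highest blood library.

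The difference between naive brain and blood was 5.11 ± 0.85 on the log2(CPM + 1) scale, with an adjusted p of 1.80e-05, and it stayed past the threshold under every alternative run, with values from 3.91 (without blood replicate 2) to 6.86 (background as a term). Day 3 against naive brain gave 1.75 ± 0.85 (adjusted p = 0.378), unscaled CPM 2.73 with an adjusted p of 0.0108, quantile normalization 2.99 (0.223), and background as a term 0.58, which was not called. Day 30 against naive brain gave -1.53 ± 0.85 (adjusted p = 0.607), and from -3.28 in low background libraries alone to -0.65 without day 30 replicate 1 under the alternatives, with no adjusted p under 0.05. Day 30 against day 3 gave -3.28 ± 0.85 with an adjusted p of 0.0724. With the replicate block, a term for the sample number over all 12 libraries, it was -3.28 ± 0.80 with an adjusted p of 0.0186. The labels state no pairing, and the block follows the sample numbers alone. Cox6a2 was the 1 member called in this comparison with the block (0.242% of all tested genes were lower). The same difference was past the threshold on unscaled CPM (adjusted p = 6.38e-05), after quantile normalization (0.0444) and by DESeq2 (0.048), and not by edgeR (0.233). By limma it was also past it with a pseudocount of 5 (0.0302) and with background as a term (0.0408). It was not with a pseudocount of 0.1 (0.515), no filter (0.189), the stricter filter (0.123) or library quality weights (0.0769). Without day 3 replicate 3 it was -2.80 with an adjusted p of 0.523. Without day 30 replicate 1 it was -2.40 with an adjusted p of 0.363.

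Cox6a1, the common isoform, had 395, 313 and 304 CPM in blood, 873, 757 and 1273 in naive brain, 964, 109 and 325 on day 3 and 599, 376 and 442 on day 30. Its day 3 value against naive brain was -1.54 ± 0.68 (adjusted p = 0.339), and day 3 replicate 1 lay among the naive libraries. Within a library, the share of Cox6a2 in the reads of both isoforms needs no scaling. This share was 4.19%, 0% and 2.26% in blood and 16.5%, 21.6% and 11.5% in naive brain. On day 3 it was 29.7%, 81.2% and 78.6%, and on day 30 it was 2.87%, 21.1% and 23.0%. The 0% in blood replicate 2 was 0 of 571 reads, with an exact 95% binomial interval up to 0.644%. In day 3 replicate 1, the lowest of its group, the exact interval was 28.4% to 31.1%, above the highest share of any other group. The isoform share was a description and was not tested.

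**Figure D4:**
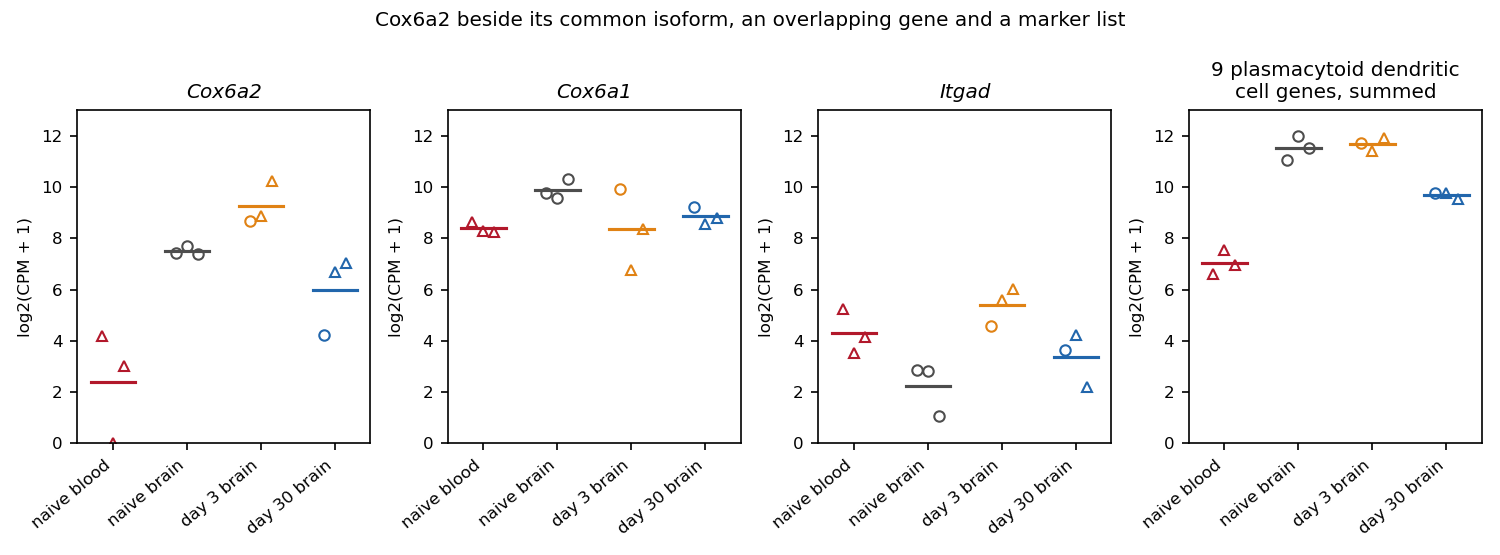
log2(CPM + 1) in each of the 12 libraries of Cox6a2, of its common isoform Cox6a1, of Itgad, whose exons overlap those of Cox6a2 on the other strand, and of the summed plasmacytoid dendritic cell markers without Cox6a2; bars are group means, and circles mark low and triangles high receptor background. Cox6a2 is highest in the 3 day 3 libraries, while the marker sum overlaps between naive brain (2119 to 4054 CPM) and day 3 (2710 to 3828 CPM) and is lower on day 30 and in blood.

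Values of other genes are given here beside those of Cox6a2. The marker sum below overlapped between naive brain and day 3, where Cox6a2 did not. The 9 other plasmacytoid dendritic cell markers summed to 96.3 to 188 CPM in blood, 2119 to 4054 in naive brain, 2710 to 3828 on day 3 and 746 to 881 on day 30, and none of the 9 was at 0 in a whole group. Siglech, a surface receptor that defines these cells in mice and is shared with microglia, had 8.11, 11.0 and 5.98 CPM in blood, 1008, 1503 and 1625 in naive brain, 1282, 608 and 1127 on day 3 and 408, 199 and 269 on day 30. Ccr9, a chemokine receptor of plasmacytoid dendritic cells, had 129, 278 and 54.7 CPM in naive brain, 264, 376 and 515 on day 3 and 44.9, 60.1 and 64.6 on day 30. Klk1 had 1.94, 50.0 and 1.19 CPM in naive brain and 28.2, 74.2 and 168 on day 3, with overlap. Of all 10 markers, Cox6a2 included, 8 had positive and 2 negative differences on day 3 against naive brain. By limma 0 of them were called, beside 0.716% of all tested genes. The part of such cells in the Cox6a2 values was not tested. The 12 muscle markers summed to 32.0 to 221 CPM over all libraries, with their highest value in blood. Itgad had 10.4 to 36.8 CPM in blood, 1.09 to 6.20 in naive brain, 23.1 to 63.2 on day 3 and 3.61 to 17.9 on day 30, at most 63.2 CPM beside a Cox6a2 level of 1192 CPM in the same library. The sources used here do not give the strand setting of the counting, so reads of the overlap could belong to either gene.

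The other tissue isoforms were near the floor. Cox4i2, the oxygen-regulated lung isoform, had at most 8.13 CPM, Cox7a1, the muscle isoform of subunit 7a, at most 7.61, and Cox8b, the muscle isoform of subunit 8, at most 3.67. The testis isoforms Cox6b2, Cox7b2 and Cox8c reached at most 8.11, 10.3 and 5.42 CPM, and Ndufa4l2, which is induced by hypoxia, 3.10. Cox4i2 took at most 2.89% of the reads of both Cox4i genes and Cox7a1 at most 1.74% of those of Cox7a1 and Cox7a2. For Cox6b2 the day 3 libraries, at 0.951, 3.18 and 8.03 CPM, were all above naive brain at 0.387, 0 and 0 CPM (adjusted p = 0.379). These values rest on 3, 7 and 15 reads on day 3 and 1, 0 and 0 reads in naive brain. The 3 genes of the rotating c ring, which encode the same mature protein, were shared out in proportions that overlapped between all groups for Atp5g1 and Atp5g3. Atp5g2 took at least 11.3% of their reads in each naive brain library and 9.07%, 6.27% and 4.82% on day 30, without overlap between these groups. Atp5g1 was at 48.4% ± 22.9 (SD, n = 3) of their reads in blood, 48.5% ± 7.71 in naive brain, 43.0% ± 13.9 on day 3 and 54.9% ± 8.56 on day 30.

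Genes of the same pathway outside the symbol rule were counted from 4 lists. In naive brain against blood, 4 of 44 assembly factors rose (Surf1, Ndufaf7, Cox19 and Uqcc3, listed as AI462493), with a list median of 1.48, where 6.61% of all tested genes were called higher. Surf1, which helps to build complex IV, was at 1.62, 13.7 and 4.22 CPM in blood and 84.5, 160 and 185 in naive brain (4.54 ± 0.94, adjusted p = 0.000704). Of 17 citrate cycle and pyruvate dehydrogenase genes, 5 rose, among them Idh3b, Idh3g, Dlst and Mdh2, with a median of 1.63. Among 9 other electron transfer genes, 1 rose, Cyc1, the cytochrome c1 of complex III, from 24.3, 8.23 and 57.7 to 262, 325 and 393 CPM (3.76 ± 0.80, adjusted p = 0.000935). Of 15 regulators of mitochondrial biogenesis 1 rose, Myc, a share near that of all tested genes. On day 3 against naive brain Myc was the 1 gene of these lists that fell by limma (-3.55 ± 0.85, adjusted p = 0.0237), beside 0.564% of all tested genes. By edgeR 0 genes of the list fell, where 1 of 22352 genes did. On unscaled CPM the counts in naive brain against blood were 1 higher and 1 lower among assembly factors, 0 among citrate cycle genes and 1 higher in each other list, and the list medians were 0.29, 0.43, 0.33 and -0.68. The medians on day 3 against naive brain were -0.80 for assembly factors, -1.27 for the citrate cycle, -1.24 for other electron transfer genes and -0.76 for regulators, beside -0.88 for the subunits, and on unscaled CPM 0.13, -0.30, -0.28 and 0.17, beside 0.11. On day 30 against day 3 the same medians were 0.70, 0.91, 0.60 and 0.31, beside 0.43, and all were positive on unscaled CPM too. The subunits encoded by the mitochondrial genome were not analysed here.

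**Figure D5:**
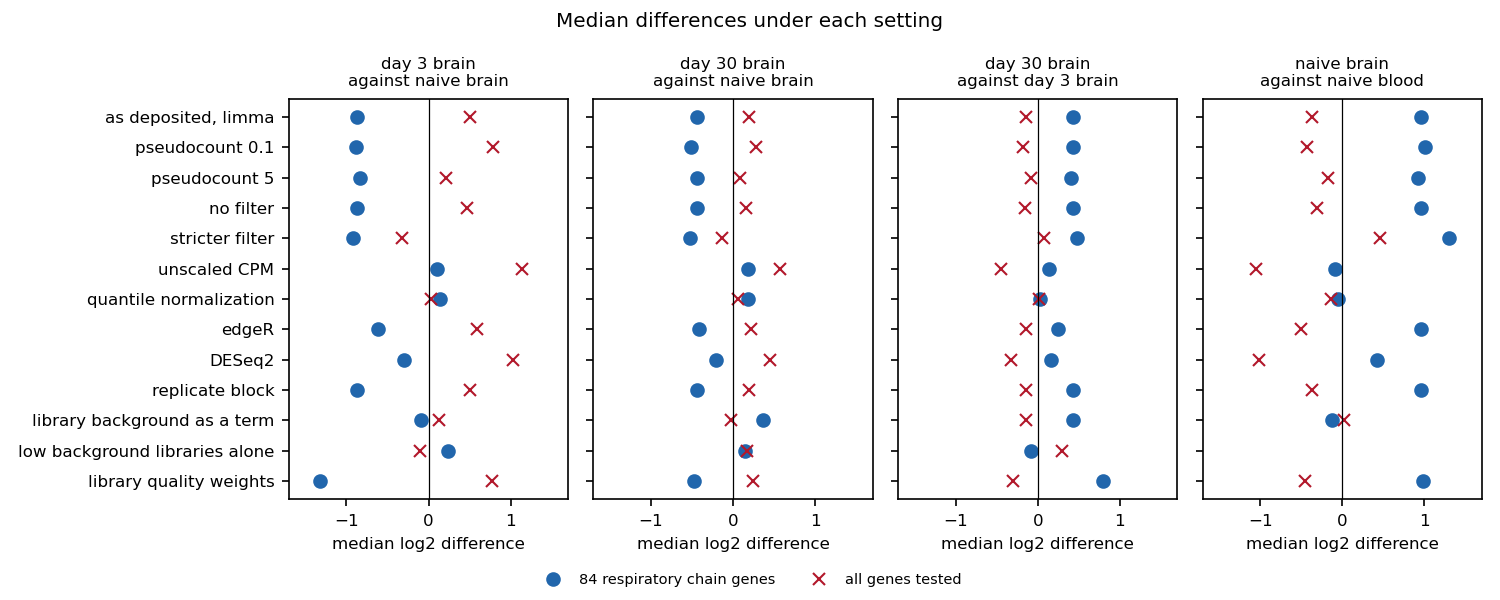
Median log2 difference of the 84 respiratory chain genes (dots) and of all genes tested (crosses) in the 4 comparisons under each processing setting. The dots lie between -0.09 and 0.18 on unscaled CPM and between -0.05 and 0.18 after quantile normalization. With background as a term they lie at -0.10 and -0.13 for day 3 against naive brain and naive brain against blood, and at 0.37 and 0.43 for day 30 against naive brain and against day 3.

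The members' values moved with the scaling and with the libraries that stood apart. Of the 84 genes, 29 were higher in all 5 low background libraries than in all 7 others (6.78% of all tested genes were), and on unscaled CPM 3 were (1.02%). The lowest value of a gene fell in day 3 replicate 2 for 39 members and in blood replicate 2 for 24, and the highest in naive brain replicate 3 for 33. Exons of 29 members overlap those of another gene, 25 of them on the opposite strand, among them Atp5d with Cbarp, Ndufs3 with Kbtbd4, Uqcrc2 with Pdzd9 and Atp5a1 with Haus1, and reads there could belong to either gene.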

How the data were processed

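RNA of CD8 T cells from 12 samples in 4 groups of 3 was prepared with a SMART-Seq v4 kit, per the labels' protocols. The submitters' processing notes name FastQC 0.11.2, STAR 2.5.3a, featureCounts from Subread, edgeR and the mm10 build. The sources used here do not give the annotation, the strand setting or the filters. The signal that the authors deposited for each gene is in reads per 1e+06 of a scaled library size (CPM), and in each library 100% of the values were whole reads to within 1e-06.

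The test was limma 3.58.1 (R 4.3.3, trend, empirical Bayes moderation) on log2(CPM + 1) of all 12 libraries, over the 22352 genes that reached 1 CPM in 3 libraries or more. Benjamini-Hochberg adjustment of the two-sided p-values ran over these genes within each of 4 comparisons, at a threshold of 0.05. A fold change on this scale understates that of low genes. edgeR 4.0.16 and DESeq2 1.42.0 on the recovered reads, other pseudocounts (0.1 and 5), filters, scalings, a replicate block, receptor background as a term, library weights and single libraries left out were alternatives. Methods were tested on simulated data. No library was a near copy of another, with at most 3.79% of detected genes at equal counts.

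Day 3 and day 30 samples of the same number deviated together (correlations 0.530, 0.284 and 0.165, each over 0.1), while those of unlike numbers ran from -0.439 to 0.214 and both replicates 1 had low receptor background. By the threshold of 0.1 they were treated as if paired for that comparison, although 0.165 lay below 0.180 and 0.214 of unlike numbers. A pairing and the low receptor background that both replicates 1 share cannot be told apart here. The choice rests on these same data. The numbers used are those in the labels, which do not state a pairing, and other groups were not judged to be paired. The replicate block was still a term over all 12 libraries, so it tied blood and naive brain samples of the same number too. Naive brain replicate 1 deviated against replicate 1 of day 3 (-0.421) and of day 30 (-0.390). The members and lists were chosen with earlier results of these data known. Named are the members past the threshold, the 2 highest per length in each complex, the succinate dehydrogenase genes, alternative isoforms and the 3 largest and smallest differences of each comparison. Gene positions are from GENCODE vM21. Values of some single genes are not reported here.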

Additional observations from a re-analysis of the deposited data

How the results depend on the processing

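Counts of members called on day 3 against naive brain moved from 0 to 1 higher on unscaled CPM (0.514% of all tested genes higher). DESeq2 called 1 lower (0.796% lower), and with library quality weights 17 were lower (6.19%). With single libraries left out the count ranged from 0 to 7, the 7 lower without day 3 replicate 1 (2.73%). On day 30 against naive brain that range was 0 to 4, the 4 lower without day 30 replicate 1 (514 of 22352 genes lower). On day 30 against day 3 the count was 1 (Cox6a2, lower) with a pseudocount of 5, on unscaled CPM, after quantile normalization, with DESeq2, with the replicate block and with background as a term. In these settings 0.166% to 0.685% of all tested genes were called lower. With single libraries left out the count was 0 to 1. In naive brain against blood it moved from 10 to 6 without a filter (4.98% of all tested genes higher) and 5 with edgeR (4.72%). It was 20 with the replicate block (7.72%), 1 with background as a term (0.157%) and 24 with quality weights (11%). In each of these the members called were higher in brain. DESeq2 called 6 higher and 2 lower, Cox6b2 and Cox7b2 (5.94% and 11.2% of all tested genes). Without naive blood replicate 3, 6 were higher and 1, Cox7b2, lower (5.45% and 0.778%). With single libraries left out the count ranged from 4 to 19. It was 4 without naive brain replicate 2 (3.96% of all tested genes higher) and 5 without naive brain replicate 3 (3.34%). It was 19 without day 3 replicate 1 (7.31%), 16 without day 3 replicate 2 (6.93%) and 16 without day 30 replicate 1 (1767 of 22352 genes).

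The members' median on day 3 against naive brain moved from -0.88 to 0.11 on unscaled CPM, 0.15 after quantile normalization, -0.10 with background as a term and 0.24 in low background libraries alone, and on day 30 against naive brain from -0.44 to 0.37 with background as a term. In naive brain against blood it moved from 0.95 to -0.089 unscaled, -0.050 after quantile normalization and -0.13 with background as a term. With background as a term Sdhb (-0.20) and Atp5b (-0.025) changed sign there. The cause was not tested. The replicate block changed no call of a named gene other than Cox6a2 in day 30 against day 3. In low background libraries alone naive brain against blood could not be fitted, since no blood library had low background, and day 3 and day 30 had 1 library each, assumed to vary like the others. At the lowest depth, 1104490 reads, genes under 1.65 CPM were not detectable beyond a count of 0.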
